A study of Rattus norvegicus with 12 samples.

Results

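The insulin-like growth factor (IGF) genes described here were the 2 ligands Igf1 and Igf2, the receptors Igf1r and Igf2r, and the binding proteins Igfbp2, Igfbp3, Igfbp4, Igfbp5, Igfbp6 and Igfbp7. They were chosen by gene symbol, and all 10 were among the 12271 genes of the table. RNA was sequenced from primary cardiac fibroblasts of Sprague Dawley rats at postnatal day 2, transfected with siRNAs at 25 nM each and, per the labels, collected 48 h later. A passage of the study's methods instead counts that time from a change of medium after transfection. The 4 groups were cells given universal negative control siRNAs (negative siRNA), siRNAs against Yap (Yap siRNA), siRNAs against Wwtr1 (Wwtr1 siRNA), or both sets (Yap+Wwtr1 siRNA, called double knockdown below). The treatment label of the double knockdown samples lists only the siRNAs against Wwtr1, so their group rests on the sample titles. Each group held 3 libraries, which the study made from separate litters. All 4 groups were transfected cultures in serum, so no untransfected cells enter the comparisons. The study's methods state no matching of the total siRNA amount between groups. Loss of both factors and a larger siRNA amount therefore cannot be told apart in the double knockdown. The series set out to learn which expression changes follow loss of Yap, of Wwtr1, or of both.

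IGF1 and IGF2 are secreted growth and survival factors that act through IGF1R, a receptor tyrosine kinase upstream of the PI3K, AKT and RAS, ERK pathways. IGF2R lacks a kinase and clears IGF2 from the cell surface. The binding proteins hold the ligands in the extracellular space and set how much reaches the receptor, some of them also binding matrix or acting without ligand. Yap and Wwtr1 (also called TAZ) are transcriptional coactivators that reach DNA mainly through TEAD proteins.

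Values were normalized counts per gene, with 33886920 to 41059839 recovered reads per library. Yap1 fell by 82.2% in Yap siRNA and fell by 71.7% in the double knockdown (limma, adjusted p = 0.000271 and 0.000107), and Wwtr1 fell by 76.3% in Wwtr1 siRNA and fell by 64.2% in the double knockdown (adjusted p = 2.33e-05 and 1.66e-05). Wwtr1 in the double knockdown was 1.51-fold its level in Wwtr1 siRNA (limma adjusted p = 0.00804). Yap1 there was 1.59-fold its level in Yap siRNA (limma adjusted p = 0.0623). The part of unequal depletion in differences between double and single knockdowns, or in interactions, was not tested. One library stood apart. Double knockdown replicate 3 had a Yap1 count of 1474 against 713 and 739 in replicates 1 and 2, and it held the highest of the 12 values for 6 of the 10 IGF genes, compared with 14.8% of all genes tested. All 8 fibroblast markers were in the table and none was at 0 in any library, with summed counts between 2571280 and 3753060. Markers of other cell types were also present, and counts of those that changed in the double knockdown can be read against the 32.8% of all genes that changed and the 17.1% that rose. There 3 of 8 fibroblast markers rose and 2 fell, 2 of 8 cardiomyocyte, 4 of 8 endothelial and 3 of 6 mural cell markers rose, 1 mural marker fell, and of 6 mesothelial and epicardial markers 1 rose and 1 fell, with 0 of 7 macrophage markers past the test (limma adjusted p under 0.05; 1 at an unadjusted p under 0.05). The summed endothelial level was 1140 to 1489 in negative siRNA and 1702 to 2542 in the double knockdown, and the cardiomyocyte sums were 41220 to 72026 and 66181 to 89470. Mural sums were 87519 to 98454 and 88996 to 107549. The part of these cell types in the IGF results was not tested. Of 8 macrophage markers, 7 were in the table and none of these was at 0, and their sum was 10970 to 15958 in negative siRNA, 9659 to 14740 in Yap siRNA, 6580 to 10063 in Wwtr1 siRNA, with 3691, 7362 and 24994 in the double knockdown. In bulk RNA, fewer cells of a type and less RNA per cell cannot be told apart.

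Differences between groups were tested with limma on log2(normalized count + 1) over 11871 genes, and a gene is said to have risen or fallen where the Benjamini-Hochberg adjusted p was under 0.05. In the double knockdown, 3 of the 10 IGF genes rose against negative siRNA and none fell, where 32.8% of all genes tested changed and 17.1% rose. The 3 were Igf1, Igfbp4 and Igfbp5, and they were also the 3 whose double knockdown libraries all lay above every negative siRNA library (23.1% of all genes). The plot of normalized counts by siRNA group shows these genes, and the remaining 7, in every library.

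**Figure D1:**
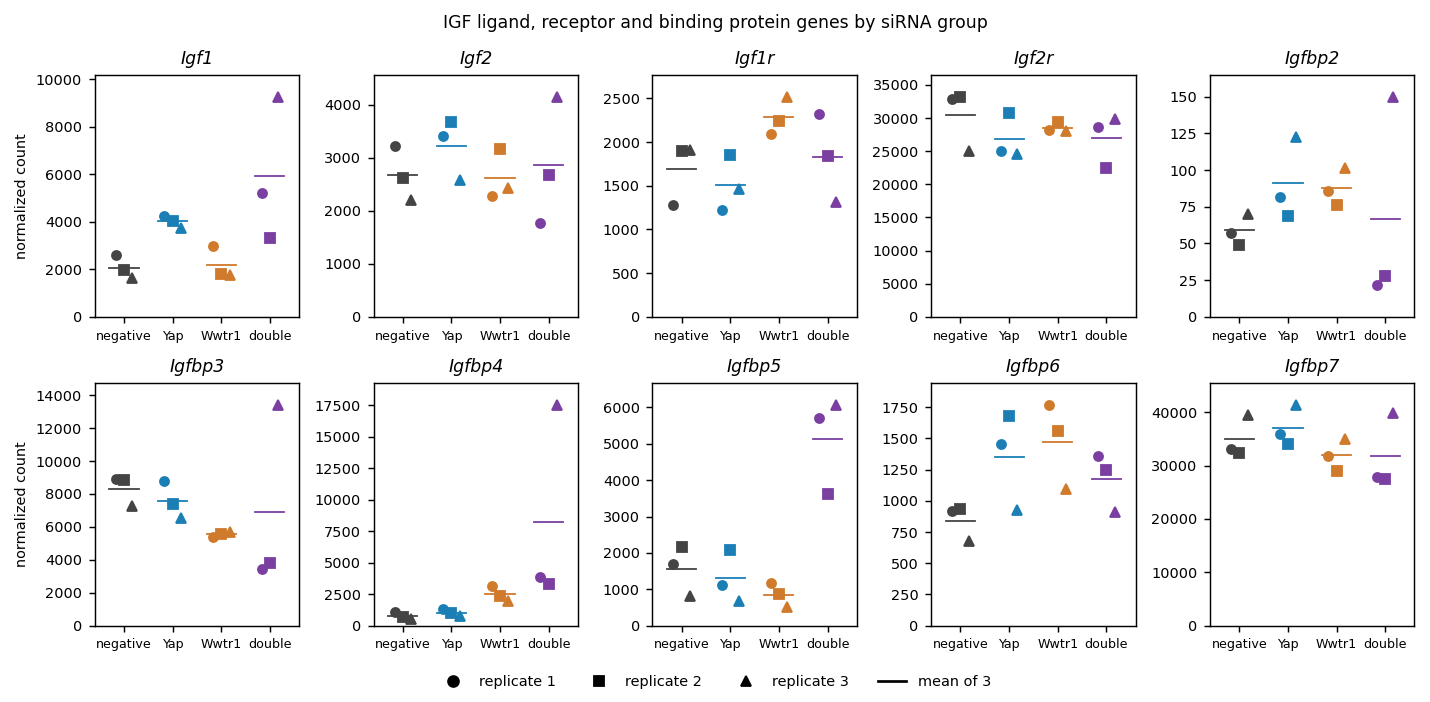
Normalized counts (y axis, from 0) of the 10 IGF genes in the 12 libraries, by siRNA group (x axis); symbols mark the replicate and lines the mean of 3. The 3 double knockdown libraries lie above all negative siRNA libraries for Igf1, Igfbp4 and Igfbp5, and replicate 3 is far above replicates 1 and 2 for Igfbp2, Igfbp3 and Igfbp4.

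RefSeq promoters (GRCr8, the 250 bases before each start) are printed for the 3 genes that rose together in the double knockdown, and for the single IGF promoter that held the TEAD core motif, since TEAD proteins carry Yap and Wwtr1 to DNA. All 10 genes matched, with 11 windows, because Igf2 has 2 listed starts. The motif searched was GGAATG on either strand (CATTCC), found in 12.1% of 33469 rat promoters, and it is in capitals. The windows are Igf1 at chr7:24172282-24172531 (+), Igfbp4 at chr10:84491221-84491470 (+), Igfbp5 at chr9:81914188-81914437 (−) and the second Igf2 start at chr1:207250476-207250725 (−), each given 5′ to 3′ on the gene's strand and lying upstream of the transcript.
Igf1: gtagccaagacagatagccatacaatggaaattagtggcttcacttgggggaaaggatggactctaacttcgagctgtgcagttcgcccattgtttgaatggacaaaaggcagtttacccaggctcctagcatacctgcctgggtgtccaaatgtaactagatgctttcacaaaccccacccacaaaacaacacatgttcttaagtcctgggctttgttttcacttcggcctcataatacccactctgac
Igfbp4: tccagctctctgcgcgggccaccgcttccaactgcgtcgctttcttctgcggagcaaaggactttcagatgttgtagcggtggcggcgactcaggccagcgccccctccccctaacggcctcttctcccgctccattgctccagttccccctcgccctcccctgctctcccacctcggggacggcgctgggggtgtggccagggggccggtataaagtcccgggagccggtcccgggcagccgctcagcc
Igfbp5: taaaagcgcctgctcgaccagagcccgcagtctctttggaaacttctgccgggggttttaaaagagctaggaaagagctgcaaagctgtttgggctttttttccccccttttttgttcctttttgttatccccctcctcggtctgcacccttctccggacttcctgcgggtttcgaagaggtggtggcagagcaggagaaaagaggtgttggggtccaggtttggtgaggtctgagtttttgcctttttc
Igf2 second start: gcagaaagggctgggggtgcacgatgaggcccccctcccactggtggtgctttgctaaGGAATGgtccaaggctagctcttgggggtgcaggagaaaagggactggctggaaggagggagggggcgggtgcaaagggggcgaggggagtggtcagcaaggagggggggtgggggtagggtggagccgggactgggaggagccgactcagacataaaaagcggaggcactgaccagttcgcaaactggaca
The Igf2 match begins at position -192 from the start. The windows of Igf1, Igfbp4 and Igfbp5 held no match. No IGF window held the AP-1 motif TGANTCA, which reads the same on both strands and was in 6.34% of rat promoters. These letters describe the windows and are not evidence of binding.

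Of the ligands, Igf1 was higher where Yap was depleted, and Igf2 varied between libraries with no group difference past the threshold in any fit. Igf1 had normalized counts of 2600, 1956 and 1629 in negative siRNA, 4259, 4052 and 3735 in Yap siRNA, 3000, 1792 and 1760 in Wwtr1 siRNA, with 5202, 3341 and 9272 in the double knockdown. Every Yap siRNA and double knockdown library was above every negative siRNA and Wwtr1 siRNA library. Igf1 rose 2.69-fold in the double knockdown against negative siRNA (log2 fold change 1.43 ± 0.31 SE, n = 3 per group, limma adjusted p = 0.00482). It also rose 2.57-fold against Wwtr1 siRNA (limma adjusted p = 0.0111), a call that was lost without Wwtr1 siRNA replicate 3 (log2 fold change 1.23, limma adjusted p = 0.0504). The double knockdown and Yap siRNA were not distinguished (log2 difference 0.44, 95% interval -0.25 to 1.13, limma adjusted p = 0.387).

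Depletion of Yap alone gave an Igf1 level 1.98-fold that of negative siRNA, which missed the threshold in the fit over all 12 libraries (log2 fold change 0.99, 95% interval 0.30 to 1.67, limma adjusted p = 0.105). The spread in that fit is shared with the double knockdown. Without double knockdown replicate 3 the same difference passed (limma adjusted p = 0.0260). Samples of negative siRNA, Yap siRNA and Wwtr1 siRNA with the same replicate number deviated together. A fit of these 3 groups with the replicate number as a block is therefore given beside the results it changes. It also leaves out the double knockdown libraries, so the block and that omission are not separated in it. In that paired fit Igf1 rose with Yap siRNA (SE 0.11, limma adjusted p = 0.000296), and the Yap siRNA count was 1.64, 2.07 and 2.29 times that of the negative siRNA library of the same number. The Wwtr1 siRNA to negative siRNA ratios of Igf1 lay on both sides of 1, at 1.15, 0.916 and 1.08 (log2 fold change 0.06, 95% interval -0.62 to 0.75, limma adjusted p = 0.930 over all libraries).

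Igf2, the fetal IGF, had counts of 3219, 2612 and 2205 in negative siRNA, 3421, 3670 and 2573 in Yap siRNA, 2287, 3168 and 2426 in Wwtr1 siRNA, with 1766, 2671 and 4157 in the double knockdown. The double knockdown held both the lowest and the highest of these 12 values. Its log2 fold change against negative siRNA was 0.03 (95% interval -0.55 to 0.60, limma adjusted p = 0.952), and it was -0.28 without replicate 3 (limma adjusted p = 0.334).

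The receptors changed little against negative siRNA. Igf1r, which transmits both ligands' signals, had counts of 1276, 1892 and 1912 in negative siRNA, 1226, 1846 and 1461 in Yap siRNA, 2087, 2246 and 2520 in Wwtr1 siRNA, with 2322, 1843 and 1317 in the double knockdown. The Wwtr1 siRNA libraries were all above those of negative siRNA and Yap siRNA. Over all libraries the 1.37-fold difference from negative siRNA missed the threshold (log2 fold change 0.45 ± 0.22 SE, limma adjusted p = 0.228), and in the paired fit Igf1r rose with Wwtr1 siRNA (limma adjusted p = 0.0124). Igf2r had counts between 22464 and 33234 in all 12 libraries, with means of 30406 ± 4640 (SD, n = 3) in negative siRNA and 26972 ± 3957 in the double knockdown. The log2 fold changes of Igf2r against negative siRNA were -0.18, -0.08 and -0.17 for Yap siRNA, Wwtr1 siRNA and the double knockdown, and the limma adjusted p was 0.353 or more in all 3.

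Among the binding proteins, the largest rise in the double knockdown was that of Igfbp4, which also had the highest level relative to negative siRNA after Wwtr1 depletion. Igfbp4 binds both ligands and is known chiefly as an inhibitor of their action until it is cleaved. Its counts were 1097, 678 and 520 in negative siRNA, 1289, 1022 and 793 in Yap siRNA, 3158, 2332 and 1989 in Wwtr1 siRNA, with 3855, 3318 and 17511 in the double knockdown. All Wwtr1 siRNA and double knockdown libraries were above all negative siRNA and Yap siRNA libraries. The double knockdown was 8.33-fold above negative siRNA (log2 fold change 3.06 ± 0.51 SE, n = 3 per group, limma adjusted p = 0.000899) and 5.98-fold above Yap siRNA (limma adjusted p = 0.00731). Replicate 3 carried much of this size, and without it the folds were 4.90 and 3.52 (limma adjusted p = 0.000186 and 0.00229).

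Wwtr1 depletion alone gave an Igfbp4 level 3.36-fold that of negative siRNA, just short of the threshold over all libraries (log2 fold change 1.75, 95% interval 0.63 to 2.86, limma adjusted p = 0.0546). The call was made without double knockdown replicate 2 or replicate 3 (limma adjusted p = 0.0426 and 0.00156). Igfbp4 rose with Wwtr1 siRNA in the paired fit (limma adjusted p = 5.97e-06, SE 0.09). Its same-number ratios were 2.88, 3.44 and 3.83. Yap siRNA gave ratios of 1.17, 1.51 and 1.53, a rise of 0.48 on the log2 scale in the paired fit (limma adjusted p = 0.00620). Over all libraries this smaller difference missed the threshold (limma adjusted p = 0.660). The double knockdown did not pass the test against Wwtr1 siRNA (log2 difference 1.31, 95% interval 0.20 to 2.43, limma adjusted p = 0.0924). The difference was 0.55 without replicate 3 (limma adjusted p = 0.208) and 1.75 without replicate 2 (limma adjusted p = 0.0449). It passed with edgeR and DESeq2, at 1.71 and 1.72 (adjusted p = 0.0440 and 0.0368).

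Igfbp5, a binding protein that also attaches to extracellular matrix, rose only where both siRNA sets were used, among the 3 comparisons with negative siRNA over all libraries. Its counts were 1698, 2149 and 812 in negative siRNA, 1127, 2077 and 687 in Yap siRNA, 1176, 864 and 511 in Wwtr1 siRNA, with 5705, 3632 and 6056 in the double knockdown. Each double knockdown library was above the other 9, and replicate 3 was only 1.30 times the mean of replicates 1 and 2. The double knockdown was 3.48-fold above negative siRNA (log2 fold change 1.80 ± 0.44 SE, limma adjusted p = 0.00861), 4.27-fold above Yap siRNA (limma adjusted p = 0.00972) and 6.22-fold above Wwtr1 siRNA (limma adjusted p = 0.00208). In Wwtr1 siRNA the Igfbp5 count was below that of the same-numbered negative siRNA library each time, at ratios of 0.692, 0.402 and 0.629. That difference did not pass over all libraries (log2 fold change -0.84, limma adjusted p = 0.278), and Igfbp5 fell in the paired fit (limma adjusted p = 0.0101).

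For Igfbp5 the log2 changes of the 2 single knockdowns summed to -1.13, and the double knockdown stood at 1.80. The interaction, which is the double knockdown change less that sum, was 2.93 ± 0.62 SE with a limma adjusted p of 0.0502, on the edge of the threshold. It passed without negative siRNA replicate 3 or without Yap siRNA replicate 2 (limma adjusted p = 0.0387 and 0.0422). With TMM or upper-quartile scaling, a pseudocount of 10 or a minimum mean of 100 it lay just inside (limma adjusted p = 0.0493, 0.0499, 0.0463 and 0.0479), and with DESeq2 the adjusted p was 0.00319. With limma as described above, 0 of 10 IGF genes passed this test, where 1.03% of all genes did, and 2 of the 10 had an unadjusted p under 0.05 (14% of all genes). With edgeR 0 of the 10 passed (0.859% of all genes) and with DESeq2 1 (4.24%). Without double knockdown replicate 3, the interaction of Igfbp2 passed (-2.38, limma adjusted p = 0.0238). Single changes of Igf1 summed to 1.05 against 1.43 in the double knockdown, and those of Igfbp4 to 2.22 against 3.06, with interactions of 0.38 and 0.83 that did not pass (limma adjusted p = 0.775 and 0.675).

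Igfbp5 and Igfbp2 lie next to each other in the GRCr8 gene order. Igfbp2 had low counts, at 57.5, 49.0 and 70.3 in negative siRNA, 82.0, 68.5 and 123 in Yap siRNA, 85.6, 76.5 and 102 in Wwtr1 siRNA, with 21.9, 27.6 and 150 in the double knockdown. The first 2 double knockdown libraries were the lowest of all 12 and replicate 3 was the highest. Over all libraries the log2 fold change was -0.36 (95% interval -1.59 to 0.87, limma adjusted p = 0.665), and it was 0.17 with edgeR and 0.18 with DESeq2 (adjusted p = 0.859 and 0.855), so its direction was not settled. Without replicate 3, Igfbp2 fell by 1.21 on the log2 scale (limma adjusted p = 0.0113). With Yap siRNA and Wwtr1 siRNA its log2 fold changes were 0.59 and 0.58 (limma adjusted p = 0.616 and 0.586). Same-number ratios to negative siRNA were 1.43, 1.40 and 1.74 for Yap siRNA and 1.49, 1.56 and 1.45 for Wwtr1 siRNA. Neither difference passed in the paired fit (limma adjusted p = 0.0959 and 0.0884).

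Igfbp3, the chief IGF carrier of serum, was split in the same way. Its counts were 8881, 8848 and 7239 in negative siRNA, 8770, 7372 and 6568 in Yap siRNA, 5390, 5562 and 5688 in Wwtr1 siRNA, with 3432, 3805 and 13382 in the double knockdown. Replicates 1 and 2 of the double knockdown were below the other 10 libraries and replicate 3 above them. The log2 fold change of the double knockdown against negative siRNA was -0.57 (95% interval -1.40 to 0.26, limma adjusted p = 0.278). It was -0.29 with edgeR and -0.28 with DESeq2 (adjusted p = 0.621 and 0.685), and without replicate 3 Igfbp3 fell by 1.20 on the log2 scale (limma adjusted p = 4.84e-05). Wwtr1 siRNA libraries did not overlap negative siRNA libraries, with same-number ratios of 0.607, 0.629 and 0.786. Igfbp3 fell there in the paired fit (log2 fold change -0.58, limma adjusted p = 0.000989) but did not pass over all libraries (limma adjusted p = 0.393). It also passed without double knockdown replicate 3 (limma adjusted p = 0.00537).

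Igfbp6, which prefers IGF2 as its ligand, was higher in each single knockdown. Its counts were 915, 937 and 675 in negative siRNA, 1458, 1678 and 929 in Yap siRNA, 1765, 1563 and 1096 in Wwtr1 siRNA, with 1357, 1251 and 912 in the double knockdown. The replicate 3 library was the lowest of its group in each of the 4 groups. Over all libraries neither the Yap siRNA nor the Wwtr1 siRNA difference passed (log2 fold changes 0.66 and 0.79, limma adjusted p = 0.154 and 0.0634). In the paired fit Igfbp6 rose with both (limma adjusted p = 0.00109 and 0.000261), with same-number ratios of 1.59, 1.79 and 1.38 for Yap siRNA and 1.93, 1.67 and 1.62 for Wwtr1 siRNA. The Wwtr1 siRNA difference also passed without Yap siRNA replicate 3, Wwtr1 siRNA replicate 3 or double knockdown replicate 3 (limma adjusted p = 0.0355, 0.0378 and 0.0409), and the Yap siRNA difference without Yap siRNA replicate 3 (limma adjusted p = 0.0471). The double knockdown level was 1.39-fold that of negative siRNA (limma adjusted p = 0.156), below the sum of the single changes on the log2 scale (0.47 against 1.45, interaction -0.98 ± 0.34 SE, limma adjusted p = 0.216). Both passed with the replicate number as a block over all 12 libraries (limma adjusted p = 0.00358 and 0.00951). Across all genes, same-number correlations with the double knockdown were -0.127 to 0.180, so whether the numbers pair its samples was not settled.

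Igfbp7, a secreted relative with low affinity for IGFs, had counts between 27578 and 41303 in the 12 libraries. Its means were 35008 ± 3820 (SD, n = 3) in negative siRNA, 37133 ± 3738 in Yap siRNA, 31906 ± 3012 in Wwtr1 siRNA and 31711 ± 6982 in the double knockdown. No comparison with negative siRNA passed over all libraries (log2 fold changes 0.09, -0.13 and -0.16). Without double knockdown replicate 3 the double knockdown level fell by 0.33 on the log2 scale (limma adjusted p = 0.0380).

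**Figure D2:**
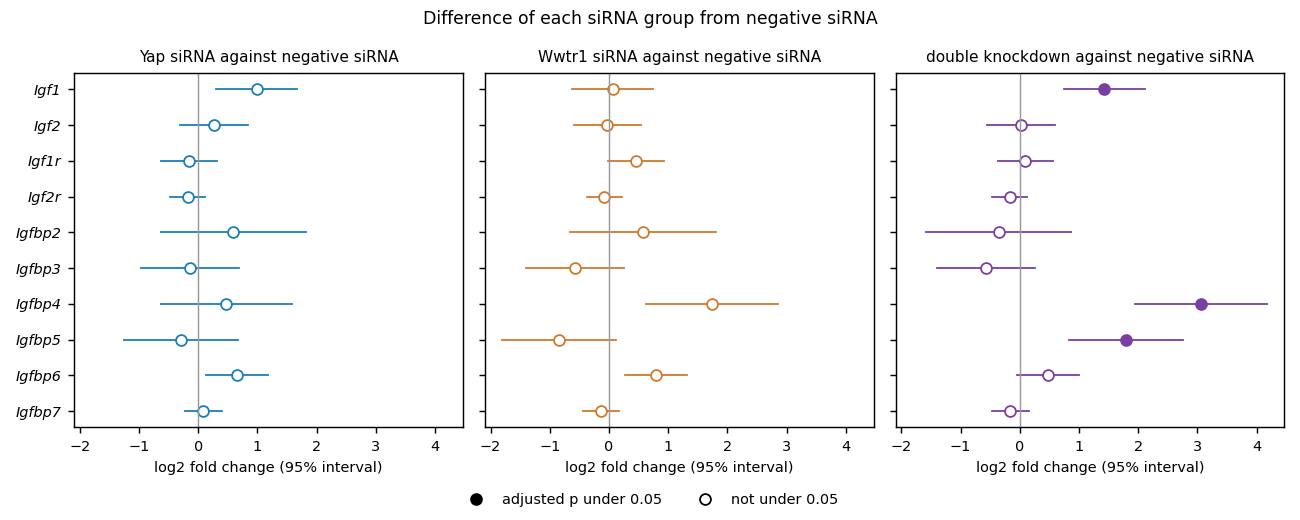
Log2 fold change against negative siRNA (x axis) with its 95% interval for the 10 IGF genes in Yap siRNA, Wwtr1 siRNA and the double knockdown, from limma over all 12 libraries; filled points have an adjusted p under 0.05. Only Igf1 (1.43), Igfbp4 (3.06) and Igfbp5 (1.80) in the double knockdown are filled.

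Across the whole family, the single knockdowns had 0 of 10 genes past the limma threshold over all libraries, where 4.8% of all genes changed with Yap siRNA and 8.96% with Wwtr1 siRNA. At an unadjusted p under 0.05 there were 2 of 10 in each, where 19.7% and 23.9% of all genes were. By edgeR 0 of 10 passed in each (4.52% and 8.75% of all genes), and by DESeq2 1 of 10 (8.53% and 13%). In the paired fit of the 3 groups without the double knockdown, 3 of 10 rose with Yap siRNA (Igf1, Igfbp4 and Igfbp6), where 16% of all genes changed. With Wwtr1 siRNA 5 of 10 changed, where 21.3% of all genes did. Igf1r, Igfbp4 and Igfbp6 rose, and Igfbp3 and Igfbp5 fell. Without overlap with negative siRNA, 1 of 10 was higher in Yap siRNA (Igf1, with 13.5% of all genes), 4 were higher in Wwtr1 siRNA (Igf1r, Igfbp2, Igfbp4 and Igfbp6, with 16.6%) and 1 was lower there (Igfbp3, with 16%). Leaving out single libraries from the fit over all groups gave 1 call for Yap siRNA without Yap siRNA replicate 3 or double knockdown replicate 3, where 4.57% and 6.44% of all genes were called. For Wwtr1 siRNA it gave 1 call without Yap siRNA replicate 3, Wwtr1 siRNA replicate 3 or double knockdown replicate 2 (8.53%, 6.73% and 8.23% of all genes). It gave 3 calls for Wwtr1 siRNA without double knockdown replicate 3 (12%). Over all fits that left out 1 library, 0.935% to 6.44% of all genes were called for Yap siRNA and 4.62% to 12% for Wwtr1 siRNA.

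The 2 single knockdowns were also compared directly. Over all libraries 0 of 10 IGF genes differed between Yap siRNA and Wwtr1 siRNA with limma, where 8.79% of all genes did. At an unadjusted p under 0.05 there were 3 of 10 (24.4% of all genes), with edgeR 0 (8.63%) and with DESeq2 1 (13%). In the paired fit 5 of 10 differed, where 22.6% of all genes did. Igf1, Igfbp3 and Igfbp7 were higher with Yap siRNA (log2 differences 0.92, 0.44 and 0.22, limma adjusted p = 0.000424, 0.00510 and 0.00954). Igf1r and Igfbp4 were higher with Wwtr1 siRNA (log2 differences -0.61 and -1.27, limma adjusted p = 0.00277 and 3.41e-05). Without the block, leaving out double knockdown replicate 3 gave 4 of these calls (11.9% of all genes) and leaving out replicate 2 gave 1 (7.77%).

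The ligand Igf1 and its binding protein Igfbp4 thus had opposite orders in the single knockdowns, as the paired ratios of Yap siRNA to Wwtr1 siRNA show. For Igf1 these were 1.42, 2.26 and 2.12, and for Igfbp4 they were 0.408, 0.438 and 0.399. Both genes were high in the double knockdown.

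The double knockdown had 2 of 10 IGF genes past the test against Yap siRNA (Igfbp4 and Igfbp5), where 13.8% of all genes passed. Against Wwtr1 siRNA it had 2 of 10 (Igf1 and Igfbp5), where 19.9% passed. Without double knockdown replicate 3 these counts were 5 and 4 (15.8% and 18.9% of all genes), and the count against negative siRNA was 6, where 34.2% of all genes changed. The count against Wwtr1 siRNA was 1 without Wwtr1 siRNA replicate 3, where 10.8% of all genes passed. The 6 against negative siRNA were Igf1, Igfbp4 and Igfbp5, which rose, and Igfbp2, Igfbp3 and Igfbp7, which fell. The plot with and without this library shows the 10 genes side by side.

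**Figure D3:**
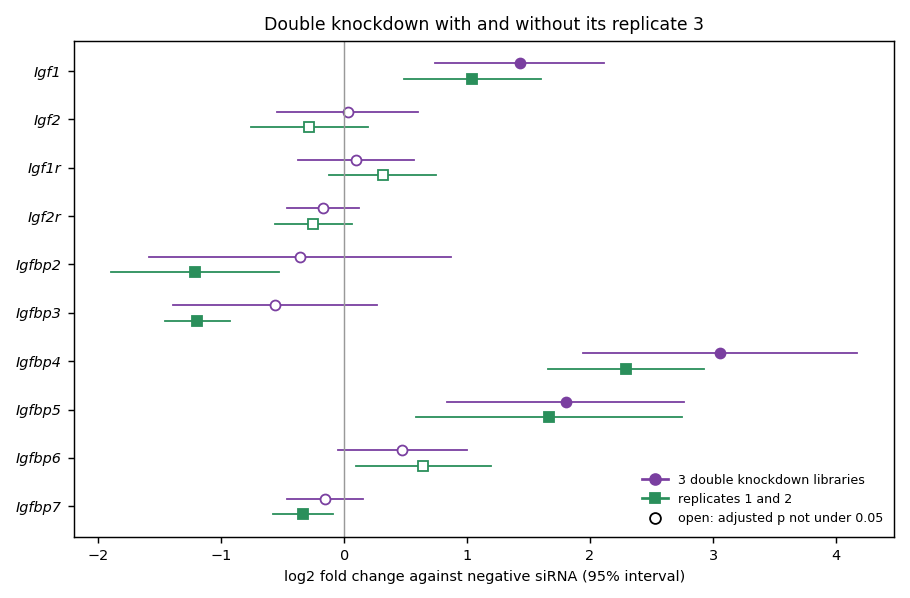
Log2 fold change of the double knockdown against negative siRNA (x axis) with 95% intervals for the 10 IGF genes, from limma with all 3 double knockdown libraries (circles) and with replicates 1 and 2 (squares); open symbols have an adjusted p not under 0.05. Igfbp3 moves from -0.57 to -1.20 and Igfbp4 from 3.06 to 2.29 when replicate 3 is left out.

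Double knockdown replicate 3 differed from the mean of replicates 1 and 2 by over 2-fold upward for 4 of the 10 IGF genes, compared with 5.34% of all genes. The ratios were 6.07 for Igfbp2, 4.88 for Igfbp4, 3.70 for Igfbp3 and 2.17 for Igf1. Igf2 followed at 1.87. Igf1r and Igfbp6 were lower in that library, at 0.632 and 0.699. The same library had the highest macrophage marker sum of the 12.

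Levels of Igfbp3 and Igf2 followed the macrophage marker sum across libraries, as the plot of IGF genes against that sum shows. Macrophages can express Igf1 and other IGF genes. On the log2 scale Pearson's r was 0.944 for Igfbp3 over the 12 libraries and 0.917 over the 11 without double knockdown replicate 3. For Igf2 it was 0.860 and 0.801. Igf1 had r of 0.172 and -0.336, and Igfbp4 0.0159 and -0.724, so for both the sign or size depended on that library. Igfbp5 had r of -0.00991 over the 12 libraries and -0.428 without that library. Igf1r had r of -0.708 and -0.643, Igfbp2 0.630 and 0.507, and Igfbp7 0.610 and 0.515. Igf2r and Igfbp6 had 0.296 and 0.246, and -0.374 and -0.287. These libraries share groups, so the values are a description. The part of macrophage RNA in the IGF results was not tested.

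**Figure D4:**
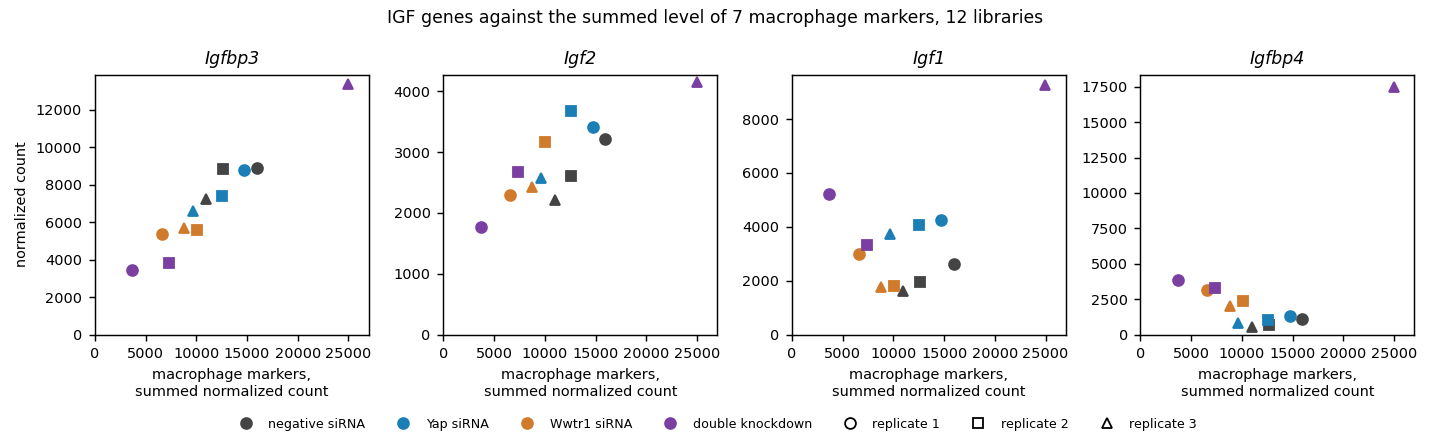
Normalized counts of Igfbp3, Igf2, Igf1 and Igfbp4 (y axes, from 0) against the summed normalized count of 7 macrophage markers (x axis, from 0) in 12 libraries, coloured by siRNA group with a symbol per replicate. Over the 12 libraries together Igfbp3 is higher where the marker sum is higher (r = 0.944), and double knockdown replicate 3 is the point at the far right, at 24994.

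Genes whose pattern over the 12 libraries was most like that of each IGF gene were found among 10101 or 10102 others whose mean normalized count was 100 or more. Igfbp3 was most like C1qa and Clec7a (r = 0.972 and 0.969), and Igf2 most like Mpeg1 and Cd68 (r = 0.962 and 0.948), all known as macrophage genes. C1qa and Cd68 are also part of the macrophage marker sum above, so their match is not separate from it. Igfbp4 was most like Fam20a and Lpl (r = 0.969 and 0.952), which rose in the double knockdown by 1.59 and 1.99 on the log2 scale (limma adjusted p = 0.000640 and 0.000129). Igf1 was most like Gusb and A2m (r = 0.956 and 0.954), and Igfbp5 most like Ifnar1 and Ebf4 (r = 0.951 and 0.950). Ifnar1, a chain of the type I interferon receptor, had counts of 4066, 3800 and 3933 in the double knockdown and between 2837 and 3440 in the other 9 libraries. Igf1r was like Tulp4 (r = 0.917). The nearest genes of Igf2r were Tmem106c and Prkd3 (0.811 and 0.800), of Igfbp2 Tmem214 and Ccne1 (0.867 and 0.865), of Igfbp6 Agbl5 and Tdrd7 (0.896 and 0.871), and of Igfbp7 RGD1308706 and Sub1 (0.916 and 0.906).

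Beyond the family itself, 50 further genes of the IGF pathway were listed and 42 could be tested. In the double knockdown 14 of 42 changed (33.3%, with 32.8% of all genes), 10 higher and 4 lower. Their median log2 fold change was 0.017, beside 0.0035 for all genes. Igfbp1, Igfbpl1, Igfals, Pappa, Pappa2, Adam12, Irs4 and Rictor were not analysed here.

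Of 5 tested proteases that cleave binding proteins or their inhibitors, 2 rose in the double knockdown. C1s, a complement protease known to cleave Igfbp5, had counts of 1996, 2991 and 926 in negative siRNA, 6960, 4351 and 1920 in Yap siRNA, 5899, 3526 and 2702 in Wwtr1 siRNA, with 17438, 14275 and 36014 in the double knockdown. It rose 11.7-fold in the double knockdown (log2 fold change 3.55 ± 0.53 SE, limma adjusted p = 0.000408), the largest change of the 42. Htra1, a secreted serine protease, rose in all 3 siRNA groups against negative siRNA, 1.48-fold with Yap siRNA, 1.53-fold with Wwtr1 siRNA and 1.40-fold in the double knockdown (limma adjusted p = 0.00955, 0.00259 and 0.00256). Without Yap siRNA replicate 1 the first of these missed the threshold (limma adjusted p = 0.0506). Stc2, an inhibitor of pappalysins, had counts of 242, 235 and 248 in Wwtr1 siRNA and 104 to 167 in the other 9 libraries. It rose 2.02-fold with Wwtr1 siRNA (limma adjusted p = 0.00442), and its change in the double knockdown was not distinguished from 0 (log2 fold change 0.25).

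Of 17 tested genes of the PI3K, AKT and FOXO arm described here, 5 rose in the double knockdown. Foxo3, a transcription factor restrained by AKT, rose 2.66-fold (counts 4404, 2894 and 3242 against 1325, 1589 and 1040 in negative siRNA, limma adjusted p = 0.000165). Foxo4 rose 1.44-fold (limma adjusted p = 0.00369), and Pik3r1, a regulatory subunit of PI3K, 1.54-fold (limma adjusted p = 0.0229). The Pik3r1 call was lost without negative siRNA replicate 3, double knockdown replicate 1 or double knockdown replicate 3 (limma adjusted p = 0.101, 0.0690 and 0.0700), and with the 2 groups compared alone.

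Among 9 receptor adaptors 1 rose and 1 fell. Grb10, an adaptor that dampens IGF1R and insulin receptor signalling, fell by 24.7% (counts 11108, 12231 and 12921 against 16175, 15981 and 15917 in negative siRNA, limma adjusted p = 0.000718). The insulin receptor substrates Irs1 and Irs2 did not pass. In the RAS and ERK arm 2 of 7 rose and 3 fell (71.4% changed, with 22.2% of the adaptors, 29.4% of the PI3K arm and 40% of the proteases, beside 32.8% of all genes), of which Hras fell by 24.3% and Map2k2 fell by 17.5% (limma adjusted p = 0.00306 and 0.0110). Map2k2 missed the threshold without negative siRNA replicate 3 (limma adjusted p = 0.0529). The third, Mapk3, fell by 14.6% (limma adjusted p = 0.0420). Its call was lost in 9 of 12 fits that left out 1 library. It was also lost in 3 of 11 other settings (the groups compared alone, the replicate block and no mean-variance trend). Of the rises in this arm, that of Map2k1 was lost without negative siRNA replicate 2 or double knockdown replicate 1 (limma adjusted p = 0.0691 and 0.0636).

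**Figure D5:**
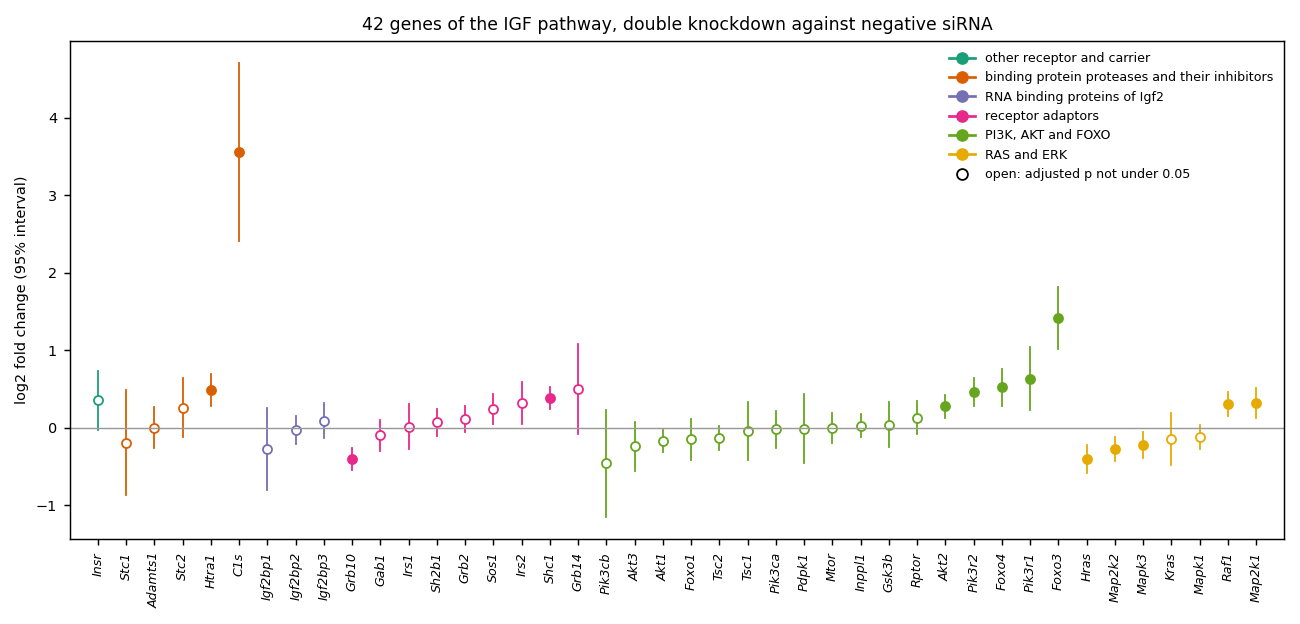
Log2 fold change of the double knockdown against negative siRNA (y axis) with 95% intervals for the 42 tested genes of the IGF pathway (x axis), coloured by role; filled points have a limma adjusted p under 0.05. C1s (3.55) and Foxo3 (1.41) stand highest and Grb10 (-0.41) is the lowest filled point.

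In the single knockdowns 3 of 42 pathway genes changed with Yap siRNA (2 higher and 1 lower) and 4 with Wwtr1 siRNA (3 higher and 1 lower), or 7.14% and 9.52%, beside 4.8% and 8.96% of all genes. Under the paired fit the counts were 11 and 9, beside 16% and 21.3% of all genes. With Yap siRNA, Htra1 and Pik3r2 rose (log2 fold changes 0.56 and 0.34) and Igf2bp2, an RNA binding protein named for Igf2 mRNA, fell by 19.7% (limma adjusted p = 0.0467). The Igf2bp2 call was lost in 10 of 12 fits that left out 1 library and the Pik3r2 call in 8, and both held without double knockdown replicate 3. Both were also lost with the 2 groups compared alone and without a mean-variance trend, and that of Pik3r2 with upper-quartile scaling. With Wwtr1 siRNA, Stc2, Htra1 and Map2k1 rose (log2 fold changes 1.01, 0.61 and 0.41), and Mapk3 fell by 20.6% (limma adjusted p = 0.0208). Map2k1 missed the threshold without negative siRNA replicate 2 or Wwtr1 siRNA replicate 1 (limma adjusted p = 0.0628 and 0.0608), and Mapk3 without negative siRNA replicate 1 or 3 or Wwtr1 siRNA replicate 1 or 2 (limma adjusted p = 0.0784, 0.0645, 0.0834 and 0.0630).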

How the data were processed

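Total RNA of 12 cultures of rat cardiac fibroblasts (4 groups of 3) was sequenced. The authors trimmed reads with Trim Galore 0.6.5 and aligned them to rn6 with HISAT2, and the study's methods name StringTie2 for transcripts and FPKM for expression. The deposited values are counts divided by a size factor per library (a normalized signal). All 147252 values were whole multiples of 1 step per library (within 0.01 read), which gave recovered reads. How the gene counts behind these values were taken, and whether by strand, is not given in the sources used here.

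Genes averaging 10 normalized counts or more (11871 of 12271) were fitted with limma 3.58.1 (R 4.3.3) on log2(value + 1), all 12 libraries, with a mean-variance trend and Benjamini-Hochberg adjustment, two-sided. A fold change is on that scale and understates changes of low genes. edgeR 4.0.16 and DESeq2 1.42.0 on recovered reads, other pseudocounts, filters, scalings and left-out libraries were alternatives. The fit was checked on simulated data. Pairing was checked from residuals: 9 same-number correlations among negative, Yap and Wwtr1 siRNA were 0.104 to 0.276, and 9 with the double knockdown were -0.127 to 0.180. Those of the double knockdown with Wwtr1 siRNA were all positive (0.180, 0.0678 and 0.0878), so pairing of the double knockdown was not settled. The paired fit leaves out the double knockdown, a choice made after seeing the data. Named genes were the 10 IGF genes, Yap1 and Wwtr1, the 4 largest significant rises and falls of the pathway list per group, list genes with a significant interaction, and the 2 genes most like each IGF gene. One pathway gene and 1 like gene are not reported here, and the pathway counts leave the former out. Members and lists were chosen with earlier results of these data known. Promoters are from RefSeq (GRCr8), where 11860 of 12271 symbols matched.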

Additional observations from a re-analysis of the deposited data

Results flagged for a closer look

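Of the 10 IGF genes and the 42 tested pathway genes, only Htra1, the secreted serine protease, had an interaction past the threshold over all libraries. Its interaction, the double knockdown change less the sum of the single changes, was -0.69 ± 0.14 SE on the log2 scale (limma adjusted p = 0.0401), where 1.03% of all genes passed. Counts were 15642, 15741 and 14787 in negative siRNA, 23244, 23071 and 21810 in Yap siRNA, and 21556, 24243 and 24840 in Wwtr1 siRNA. The double knockdown had 22117, 24404 and 18387. All 9 libraries with a knockdown were above the 3 of negative siRNA. Leaving out 1 library gave interactions of -0.78 to -0.58 and lost the call in 10 of 12 fits, the exceptions being double knockdown replicates 2 and 3. The call was also lost without a mean-variance trend, 1 of 10 other settings. The part of the weaker Wwtr1 depletion in the double knockdown in this interaction was not tested.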

How the results depend on the processing

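The rises of Igf1, Igfbp4 and Igfbp5 in the double knockdown against negative siRNA passed under all 11 alternatives of processing and all 12 fits without 1 library, with log2 fold changes of 1.04 to 1.78, 2.29 to 3.49 and 1.39 to 2.09 and limma, edgeR or DESeq2 adjusted p of 0.000448 to 0.0248, 1.64e-06 to 0.0106 and 0.00244 to 0.0403. No scaling moved the median of all genes by over 0.0389 on the log2 scale. Counts were lowest for Igfbp2, at 21.9 to 150 per library. There were 3 libraries per group and 1 stood apart. Calls in the single knockdowns differed between fits, and the choice between fits was not settled by these data.

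Counts of IGF genes past the threshold moved as follows. For Yap siRNA against negative siRNA the count went from 0 to 1 with DESeq2, with the groups compared alone and with the replicate block over 12 libraries, and to 3 with the replicate block without the double knockdown (0 to 1 when leaving out 1 library). For Wwtr1 siRNA against negative siRNA it went from 0 to 1 with DESeq2 and the replicate block, 3 with the groups compared alone and 5 with the block without the double knockdown (0 to 3 when leaving out 1 library). For Yap siRNA against Wwtr1 siRNA it went from 0 to 1 with DESeq2, 4 with the groups compared alone and 5 with the block without the double knockdown (0 to 4 when leaving out 1 library). For the interaction it went from 0 to 1 with pseudocount 10, a minimum mean of 100, TMM, upper-quartile scaling or DESeq2, and to 2 with the replicate block (0 to 1 when leaving out 1 library). For the double knockdown the counts ran from 3 to 6, 2 to 5 and 1 to 4 when leaving out 1 library, against negative siRNA, Yap siRNA and Wwtr1 siRNA, and edgeR and DESeq2 gave 3 against Wwtr1 siRNA (19.8% and 24.3% of all genes), adding Igfbp4. With the groups compared alone, 3.9%, 10.4% and 7.94% of all genes were called for Yap siRNA and Wwtr1 siRNA against negative siRNA and against each other, and with the block over 12 libraries 7.36%, 11.1% and 10.6%, and 1.95% for the interaction. The 4 other limma settings with an interaction called 1.04% to 1.47% of all genes. The cause of these moves was not tested. In the double knockdown, where pairing by replicate number was not settled, the replicate block gave 4, 2 and 3 calls in those comparisons (35.4%, 17.9% and 23.3% of all genes). Igfbp6 was added against negative siRNA and Wwtr1 siRNA (limma adjusted p = 0.00358 and 0.0338). The 2 interactions past the threshold with that block were those of Igfbp5 and Igfbp6 (limma adjusted p = 0.0242 and 0.00951). Pathway genes called in the double knockdown against negative siRNA numbered 12 to 17 under processing alternatives and 11 to 15 when leaving out 1 library. The share of all genes called ran from 25.5% to 36.1% and from 23.1% to 34.2% over the same fits.

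No difference past the threshold over all libraries changed sign. Igfbp3 in the double knockdown against Wwtr1 siRNA, at 0.012 over all libraries, was -0.62 and past the threshold without double knockdown replicate 3 (limma adjusted p = 0.00575). Of differences not past it, upper-quartile scaling turned Igf2 against negative siRNA to -0.012, Igf2r against Yap siRNA to -0.0098 and Igfbp3 against Wwtr1 siRNA to -0.0097 in the double knockdown, and edgeR and DESeq2 turned Igfbp2 against negative siRNA to 0.17 and 0.18. Leaving out 1 library turned 18 differences, these 4 among them. Against negative siRNA the log2 fold change ran from -0.19 to 0.24 for Igf1 and -0.17 to 0.12 for Igf2 with Wwtr1 siRNA, from -0.71 to 0.091 for Igfbp5 with Yap siRNA, and from -0.28 to 0.33 for Igf2, -0.10 to 0.31 for Igf1r and -1.21 to 0.15 for Igfbp2 in the double knockdown. Double knockdown against Yap siRNA ran from -0.55 to 0.065 for Igf2 and -0.072 to 0.13 for Igf2r, and against Wwtr1 siRNA from -0.26 to 0.36 for Igf2, -0.17 to 0.035 for Igf2r, -0.62 to 0.36 for Igfbp3 and -0.20 to 0.063 for Igfbp7. Yap siRNA against Wwtr1 siRNA ran from -0.22 to 0.20 for Igfbp2 and -0.34 to 0.11 for Igfbp6. Interactions ran from -0.0076 to 0.73 for Igf1, -0.53 to 0.091 for Igf2, -0.39 to 0.021 for Igf1r and -0.48 to 0.50 for Igfbp3.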
